A study of Drosophila melanogaster with 12 samples.

Results

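Many Drosophila genes are read by several probes of an expression array, and the probes of a gene do not always respond to temperature in the same way. Here 5 genes were followed probe by probe: ewg, Pabp2, Df31, Dbp80 and CG45049. They had been singled out because earlier results of these data showed probes of the same gene moving in opposite directions between cool and warm cultures. All probes whose identifier carried the CG number of one of these genes (CG3114, CG2163, CG2207, CG17023 and CG17618, respectively) were taken, which gave 24 of 32162 gene probes, for 5 of 13927 CG numbers on the array. There were 3 probes for ewg, 4 for Pabp2, 7 for Df31, 3 for Dbp80 and 7 for CG45049. All 24 were well above background on all 12 arrays, so none was lost to the filter on dim probes.

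The cells were S2R+ cells, an established line from Drosophila embryos with hemocyte character. Aliquots were kept for 24 h at 11, 14, 25 or 30 °C, 3 replicates per temperature, with no genotype or drug differing between the groups. More cells were plated at lower temperatures (4500000 per aliquot at 11 °C, 3500000 at 14 °C, 1700000 at 25 °C and 1500000 at 30 °C), so plated cell number and temperature cannot be told apart. Each RNA sample was labelled with Cy3 and hybridised to its own Agilent array. That the replicates were separate cultures is not stated in the labels, and p-values measure only the spread between these samples.

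A gene can give rise to several mRNAs that differ in their exons, their transcription start or the site at which the 3' end is cut and polyadenylated. An array probe binds a short stretch, and it reports the sum of all mRNAs that contain this stretch. If the mRNAs of a gene change in different proportions, its probes can therefore differ. The suffix in a probe identifier (RA, RB and so on) is the transcript for which the array design lists the probe. Probe positions were not analysed here, and a suffix does not show that a probe reads that transcript alone. In the RefSeq annotation ewg, Pabp2, Df31, Dbp80 and CG45049 have 13, 2, 3, 5 and 5 transcripts and lie on chromosome X and chromosome arms 2R, 2L, 3L and 3R, respectively. Each overlaps another annotated gene (CG3777, Obp44a, lncRNA:CR44993, lncRNA:CR46250 and Takl2, respectively), and the part of these neighbours in the signals was not tested.

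Between 53.9% and 61.1% of 43603 gene spots per array were well above background, and no gene spot was saturated. The hemocyte markers srp, ush, Pvr and crq were well above background on all 12 arrays, whereas Hml and NimC1 were dim. Of 16 hemocyte probes, 5 were called lower at the low temperatures and 5 higher at 30 than at 25 °C, by the thresholds given below. Both times these were all probes for Hml and NimC1 and a probe for Pxn, and none for srp, ush, Pvr, crq or Sr-CI. Over all probes tested, 11.3% were called lower and 8.86% higher at low temperatures, and 4.1% higher at 30 than at 25 °C. Their summed scaled signal was between 44530 and 71130 on the low and between 67830 and 88110 on the high arrays. Of 7 tested muscle probes, 4, all for Mlc2, were higher at low temperatures, with sums over 12 probes of 1195 to 2783 on the low and 344.3 to 938.2 on the high arrays. The probes for twi did not pass the filter on dim probes and Mhc was near background. Of 5 tested neuron probes, 1 (brp) was lower at low temperatures, with sums over 8 probes of 1888 to 2669 on the low and 2391 to 4308 on the high arrays. At 30 against 25 °C, 4 of the 7 muscle probes (all Mlc2, from 1.13 to 1.68) and 1 of the 5 neuron probes (brp, 1.04) were called higher as well. The part of such shifts in the results was not tested. All 4 arrays of replicate 1 were on slide 1, the other arrays at 11 and 14 °C on slide 2 and the other arrays at 25 and 30 °C on slide 3. The comparisons of 30 with 25 °C and of 11 with 14 °C were thus balanced over slides, while the comparison of low with high temperatures was not. Only slide 1 held all temperatures.

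Values below are log2 signals after median scaling, and a change is a difference of group means with its SE, n = 3 arrays per temperature. Low means 11 and 14 °C and high means 25 and 30 °C. A change was called at 2-fold or more and a Benjamini-Hochberg adjusted p under 0.01, over all 19763 probes tested with limma. Because the genes had been chosen by the low to high change, that change is given as a description without a test. The steps from 25 to 30 °C and from 14 to 11 °C were not part of that change, and these were tested. They share arrays with comparisons of a single low with a single high temperature. They are therefore free of the choice only as far as it rested on the low to high change.

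Between low and high temperatures, 7 of the 24 probes passed the thresholds as higher at low temperatures, 6 as lower and 11 as neither. Over all probes tested, 8.86% were called higher and 11.3% lower, and the median change was -0.16. Pabp2, Df31, Dbp80 and CG45049 each had probes called in both directions, a property of 14 (0.475%) of the 2950 genes with at least 2 tested probes. As the genes were selected for it, nothing is read from this share. With slide as a block the number fell to 2, since Dbp80 A_09_P077026 (0.76) and both Df31 probes (-0.83 and -0.87) no longer reached 2-fold. It also fell to 2 with 75th percentile and with spike-in scaling, under which the genes lost were Pabp2 and Df31. The erect wing gene ewg had no such pair. Its probes split into a pair that rose strongly and another with nearly no change, so the description as oppositely responding does not apply to ewg.

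**Figure D1:**
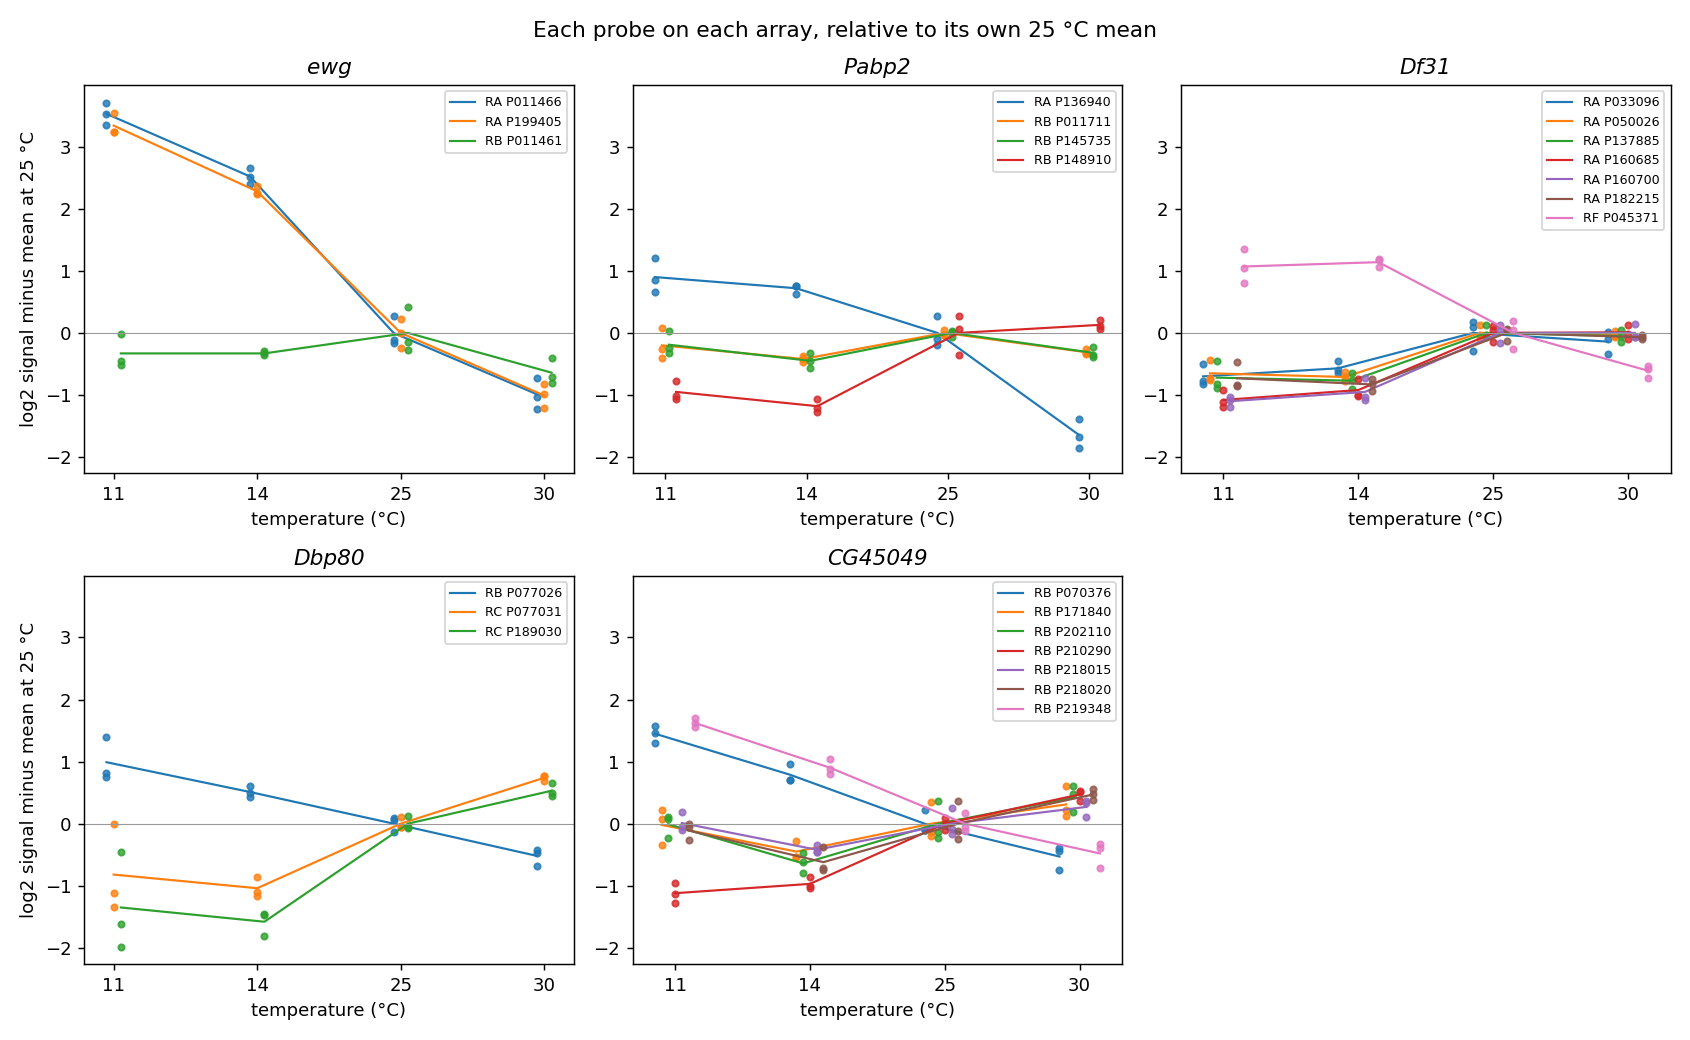
Log2 signal of each of the 24 probes on each array minus the probe's mean at 25 °C (points), with lines through the means of 3 arrays, against temperature in °C for ewg, Pabp2, Df31, Dbp80 and CG45049. Legends give transcript suffix and probe number; temperatures are evenly spaced, not to scale. In ewg the pair of RA probes falls steeply with temperature and the RB probe does not, while in the other genes probes diverge on both sides of 25 °C, where all are set to 0.

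The gene ewg codes for a transcription factor related to vertebrate NRF1, known for its role in neurons and flight muscle. In Drosophila neurons the RNA-binding protein ELAV controls the 3' processing of ewg transcripts. The RA probe A_09_P011466 read 9.32, 9.14 and 9.50 at 11 °C, 8.45, 8.19 and 8.30 at 14 °C as well as 6.07, 5.63 and 5.67 at 25 °C. The readings at 30 °C were 5.07, 4.57 and 4.76. No array of any temperature overlapped with those of another temperature. The second RA probe, A_09_P199405, read 9.09, 9.08 and 9.39 at 11 °C, 8.22, 8.08 and 8.11 at 14 °C as well as 6.08, 5.85 and 5.60 at 25 °C. At 30 °C it read 5.02, 4.64 and 4.86. It had the same order without overlap, and its correlation with the first over the 12 arrays was 1.00. The low to high changes of these probes were 3.52 ± 0.12 and 3.32 ± 0.11. Their size depended on the processing. They were 2.40 and 2.23 with normexp, a model-based background correction, when a few spots of very bright local background were left out. When those spots were kept they were 1.80 and 1.63. Normexp here also added a constant of 50 to every signal. The mean signals of A_09_P011466 were 55.3 at 25 °C and 27.8 at 30 °C, and the part of the constant was not tested. A_09_P011466 is spotted 2 times per array, and its spots gave 3.54 and 3.50 when taken singly. The probe A_09_P011461, designed for RB, read 8.16, 8.11 and 8.61 at 11 °C, 8.33, 8.26 and 8.29 at 14 °C as well as 9.04, 8.48 and 8.35 at 25 °C. The readings at 30 °C were 8.22, 7.91 and 7.82. Low and high arrays overlapped, and the change was -0.01 ± 0.14.

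In the tested steps, the RA probes of ewg moved on both sides of the range. From 14 to 11 °C they rose by 1.00 ± 0.17 (A_09_P011466, limma adjusted p = 0.00508) and 1.05 ± 0.15 (A_09_P199405, adjusted p = 0.00263). From 25 to 30 °C A_09_P199405 fell by 1.00 ± 0.15 (adjusted p = 9.08e-04), right at the fold threshold. A_09_P011466 differed by -0.99 ± 0.17 (adjusted p = 0.00187) and narrowly missed it. Both RA probes were dim at these temperatures. Mean signals at 25 and 30 °C were 55.3 and 27.8 for A_09_P011466 and 57.5 and 28.7 for A_09_P199405. Within slide 1 the 30 to 25 °C differences of these probes were -1.0 and -1.06, and within slide 3 they were -0.99 and -0.98. The RB probe differed by 0.00 ± 0.20 between 11 and 14 °C and by -0.64 ± 0.20 between 30 and 25 °C, neither of which was called. Both tested steps stood close to the thresholds. Without replicate 3 at 11 °C or without any single array at 14 °C neither RA probe was called between 11 and 14 °C (0.92 to 1.09), and without replicate 1 at 11 °C only A_09_P199405 was. The call at 30 °C was lost without replicate 1 at 25 °C (-0.89) and without replicate 2 at 30 °C (-0.91). With normexp and those spots left out, the 30 to 25 °C difference of A_09_P199405 was -0.36 and the RA probes A_09_P011466 and A_09_P199405 were 0.81 and 0.83 higher at 11 than at 14 °C.

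Pabp2 codes for the nuclear poly(A)-binding protein, which coats growing poly(A) tails and is involved in control of their length. Its RA probe A_09_P136940 read 11.55, 11.75 and 12.09 at 11 °C, 11.52, 11.65 and 11.65 at 14 °C as well as 11.16, 10.80 and 10.69 at 25 °C. At 30 °C it read 9.51, 9.21 and 9.03. The arrays at 11 and 14 °C overlapped, and those at 25 and 30 °C were each separate. The low to high change was 1.63 ± 0.13. Expression fell by 1.63 ± 0.18 from 25 to 30 °C (limma adjusted p = 1.07e-04), which on slide 1 and slide 3 was -1.65 and -1.63. Between 11 and 14 °C it differed by 0.19 ± 0.18 (95% interval -0.21 to 0.58).

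The 3 probes for transcript RB of Pabp2 did not behave alike. A_09_P011711 and A_09_P145735 were closely correlated (r = 0.97 over 12 arrays) and had low to high changes of -0.15 and -0.16, with overlapping arrays. Both were highest at 25 °C, with every array there above those at 14 °C and at 30 °C. The third, A_09_P148910, read 6.97, 7.02 and 7.27 at 11 °C, 6.83, 6.76 and 6.98 at 14 °C as well as 7.69, 8.32 and 8.11 at 25 °C. The readings at 30 °C were 8.25, 8.15 and 8.11. All low arrays were below all high arrays, with a change of -1.13 ± 0.11. Its mean signals ranged from 116 at 14 °C to 288 at 30 °C, against 11100 to 16600 for the other RB probes. The reason for this gap in level was not tested. Thus the opposite directions in Pabp2 rested on the RA probe and on a single RB probe that was not followed by the others of its suffix. The latter fell short of 2-fold with 75th percentile scaling (-0.94), spike-in scaling (-0.89) and normexp without the brightest background spots (-0.79), under which Pabp2 no longer had calls in both directions.

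Df31 codes for a small decondensation factor, a chromatin-associated protein that binds histones and RNA. The 6 probes for RA were all lower at low temperatures, with changes from -0.56 to -1.03, and in each of them all low arrays were below all high arrays. A_09_P160685 (-1.0 ± 0.09) and A_09_P160700 (-1.03 ± 0.10) passed the thresholds, the former only just. The nearest probe outside, A_09_P182215, had -0.74. The RA probes outside the thresholds were brighter, with means of 16.44 to 17.28 at 25 °C, against 15.29 for A_09_P160685 and 14.75 for A_09_P160700. The part of signal level in these differences was not tested. A_09_P160700 read 13.72, 13.67 and 13.55 at 11 °C, 14.02, 13.67 and 13.71 at 14 °C as well as 14.58, 14.80 and 14.87 at 25 °C. At 30 °C it read 14.90, 14.69 and 14.68. It formed one level at the low and another at the high temperatures. The probe for RF, A_09_P045371, read 13.32, 13.56 and 13.86 at 11 °C, 13.69, 13.57 and 13.70 at 14 °C as well as 12.25, 12.71 and 12.55 at 25 °C. The readings at 30 °C were 11.97, 11.93 and 11.79. It was higher on all low than on all high arrays, by 1.41 ± 0.11, and its correlation with the RA probes ranged from -0.77 to -0.91.

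None of the Df31 probes was called by limma at 30 against 25 °C or at 11 against 14 °C, and at an unadjusted p under 0.05 there were 1 and 0, respectively. The RA probes differed by between -0.14 and 0.00 at 30 against 25 °C, whereas the RF probe differed by -0.61 ± 0.16 (95% interval -0.96 to -0.26, adjusted p = 0.0191). At 14 against 25 °C, a contrast that overlaps with the low to high change, the RF probe differed by 1.15 and the RA probes by -0.57 to -0.95.

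Dbp80 codes for a DEAD-box RNA helicase, the fly relative of yeast Dbp5, which acts in mRNA export at nuclear pores. It is a long gene, spanning 142844 bp in the annotation. The RB probe A_09_P077026 read 8.36, 8.43 and 9.0 at 11 °C, 8.04, 8.11 and 8.22 at 14 °C as well as 7.70, 7.67 and 7.47 at 25 °C. At 30 °C it read 7.19, 6.93 and 7.13. It decreased at each step without overlap, with a low to high change of 1.01 ± 0.12, just past the fold threshold. Both RC probes went the other way. A_09_P189030 read 5.32, 5.68 and 6.84 at 11 °C, 5.49, 5.84 and 5.83 at 14 °C as well as 7.23, 7.42 and 7.25 at 25 °C. The readings at 30 °C were 7.96, 7.75 and 7.79. A_09_P077031 read 8.33, 8.11 and 9.44 at 11 °C, 8.28, 8.35 and 8.59 at 14 °C as well as 9.40, 9.55 and 9.39 at 25 °C. At 30 °C it read 10.21, 10.22 and 10.13. Replicate 3 at 11 °C was the highest low array for all 3 probes, and for A_09_P077031 it was the only low array to reach the high arrays. The low to high changes of A_09_P189030 and A_09_P077031 were -1.73 ± 0.22 and -1.30 ± 0.19, respectively. A_09_P189030 was dim at low temperatures, with mean signals of 61.6 at 11 °C and 52.6 at 14 °C. Both changes were smaller in size under normexp. With normexp as planned, whose fit was broken by a few spots of very bright local background, they were -0.37 and -0.36. It also added the constant of 50 to every signal, so no dependence on background correction is read from these values. No Dbp80 probe was called by limma from 25 to 30 °C or from 14 to 11 °C, and at an unadjusted p under 0.05 there were 1 higher and 1 lower at 30 °C and 1 higher at 11 °C. Without replicate 3 at 11 °C the RC probes differed between 11 and 14 °C by -0.22 (A_09_P189030) and -0.18 (A_09_P077031), against 0.23 and 0.22 with it.

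CG45049 has 7 probes, all listed for transcript RB, so that differences among them are not mirrored in the suffix. The current gene model combines CG17618 with CG6982, and only probes listed for CG17618 were taken here. The probes fell into 3 patterns. A_09_P219348 read 10.12, 10.20 and 10.06 at 11 °C, 9.54, 9.38 and 9.30 at 14 °C as well as 8.67, 8.38 and 8.44 at 25 °C. The readings at 30 °C were 8.10, 8.18 and 7.79. It declined stepwise with temperature without overlap, as did A_09_P070376 (r = 0.99 over 12 arrays). Their low to high changes were 1.50 ± 0.10 and 1.38 ± 0.10. A_09_P210290 read 9.73, 9.55 and 9.41 at 11 °C, 9.83, 9.69 and 9.65 at 14 °C as well as 10.78, 10.59 and 10.69 at 25 °C. At 30 °C it read 11.20, 11.22 and 11.05. This was the opposite slope, with a change of -1.28 ± 0.08 and r = -0.94 to both rising probes. The remaining 4 probes were lowest at 14 °C and higher at 11 °C again. Their low to high changes were between -0.34 and -0.60 and low and high arrays overlapped. They correlated with each other (r from 0.86 to 0.94) more than with A_09_P210290 (r from 0.62 to 0.76).

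No CG45049 probe was called by limma in either tested step, and none reached 2-fold. At an unadjusted p under 0.05 there were 3 higher and 2 lower at 30 than at 25 °C and 5 higher at 11 than at 14 °C. From 14 to 11 °C A_09_P219348 differed by 0.72 ± 0.14 (limma adjusted p = 0.00837) and the 4 intermediate probes by 0.42 to 0.62 (adjusted p from 0.0547 to 0.196). A_09_P210290 differed by -0.16 ± 0.12 in this step.

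**Figure D2:**
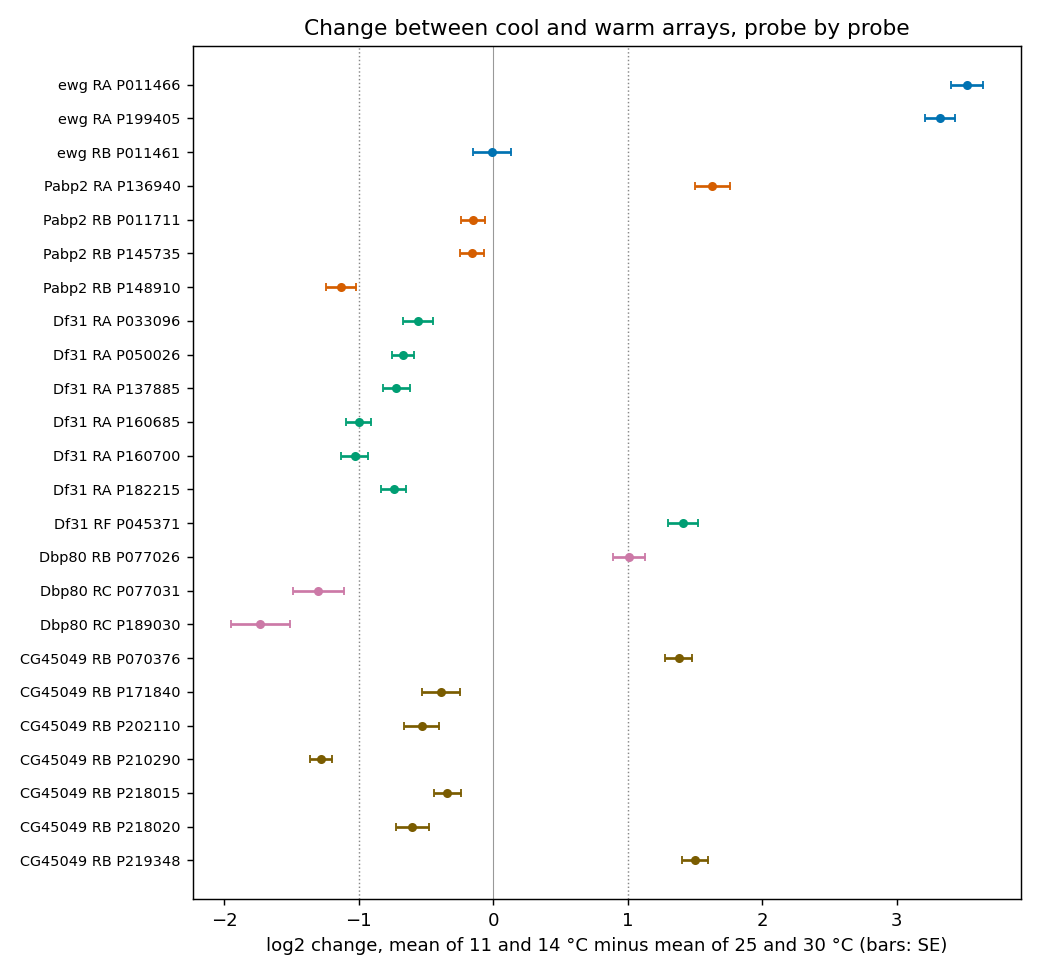
Low to high change (mean of 11 and 14 °C minus mean of 25 and 30 °C, log2) of the 24 probes with SE bars; dotted lines mark 2-fold. Pabp2, Df31, Dbp80 and CG45049 have probes past both lines, and the ewg RB probe lies at -0.01 beside RA probes at 3.52 and 3.32.

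Over the 24 probes, the step from 25 to 30 °C gave 0 called higher and 2 called lower (Pabp2 RA and ewg RA A_09_P199405), with a background of 4.1% higher and 3.35% lower over all probes tested. The step from 14 to 11 °C gave 2 called higher (both ewg RA probes) and 0 called lower, against 0.885% and 1.23%. At an unadjusted p under 0.05, 4 probes were higher and 10 lower at 30 °C, and 8 were higher and 0 lower at 11 °C. Limma's treat, which tests for changes beyond 2-fold, called 0 in either step. The calls thus concerned 3 probes of 2 genes. Signs of the low to high change were the same on slide 1 as on slides 2 and 3 for 23 of 24 probes, the exception being the RB probe of ewg (-0.39 and 0.18). The genes were chosen by this change, and slide 2 held only low and slide 3 only high arrays. Nothing is therefore read from this agreement. Signs of the 30 to 25 °C difference were the same for 17 and of the 11 to 14 °C difference for 18.

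**Figure D3:**
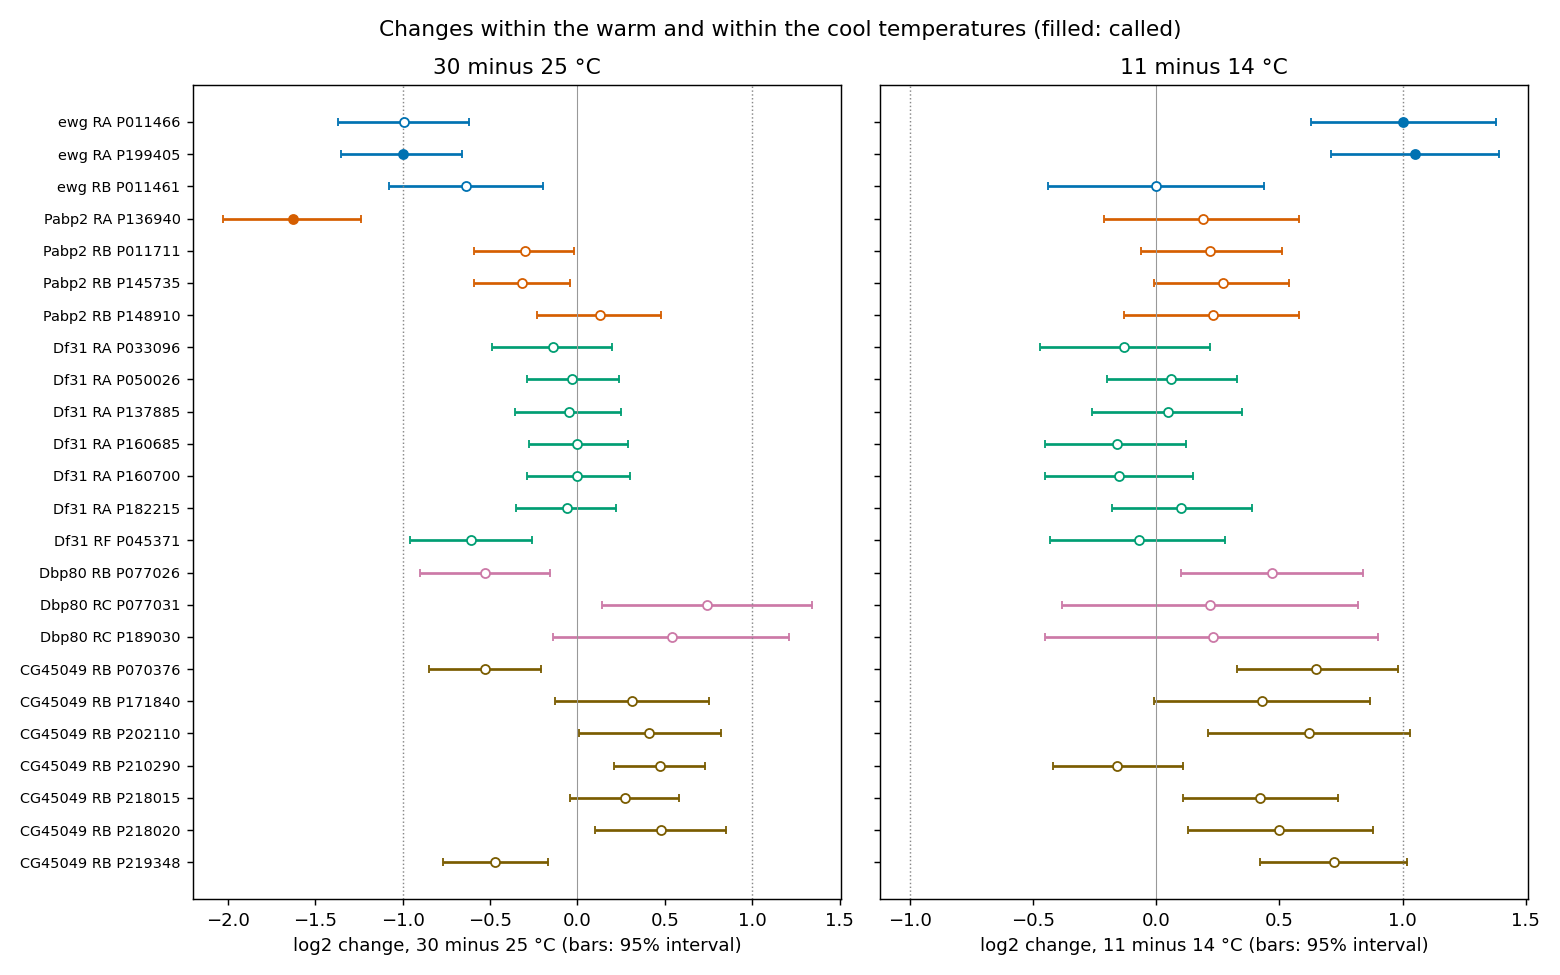
Log2 difference of 30 minus 25 °C (left) and 11 minus 14 °C (right) for the 24 probes, with 95% intervals; filled circles were called and dotted lines mark 2-fold. Filled are Pabp2 RA and one ewg RA probe on the left and both ewg RA probes on the right.

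To compare probes of a gene directly, the log2 ratio of the probe with the largest and the probe with the smallest low to high change was computed on each array and set to its mean at 25 °C. This ratio does not depend on the scaling between arrays. The low to high gaps were 3.53 (ewg), 2.78 (CG45049), 2.77 (Pabp2), 2.75 (Dbp80) and 2.44 (Df31), at ranks 7, 23, 24, 26 and 36 of 2950 genes, whose median gap was 0.17. The genes were chosen by the low to high change and the pairs by these gaps. A gap can only grow with more probes in a gene, so nothing is read from the ranks. Of 6942 pairs of probes of a gene, 2.75% were called at 30 against 25 °C and 0.864% at 11 against 14 °C in either direction.

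**Figure D4:**
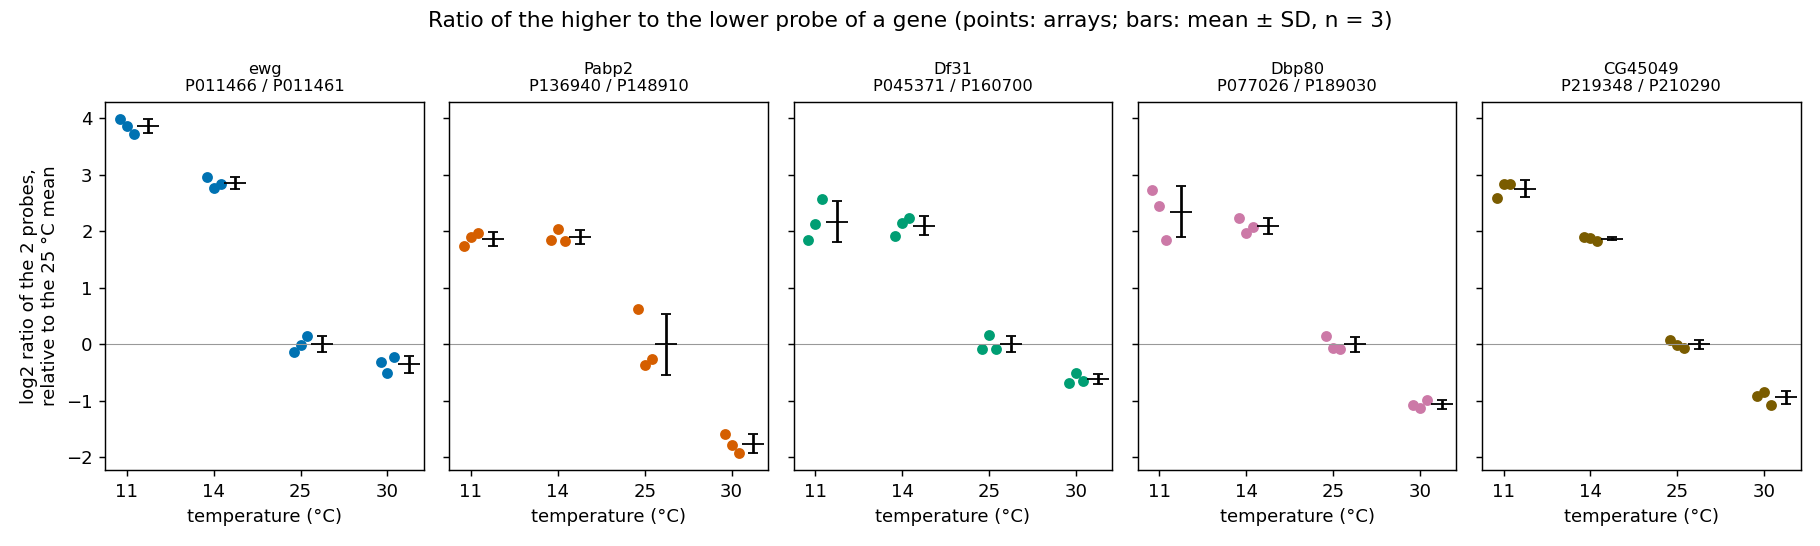
Log2 ratio of the probe with the largest to the probe with the smallest low to high change in each gene, relative to its 25 °C mean, on each array (points) with mean ± SD (bars, n = 3), against temperature in °C. The ratio of ewg steps up from 2.85 at 14 °C to 3.86 at 11 °C, and that of Pabp2 steps down to -1.76 at 30 °C.

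From 25 to 30 °C the ratio had a lower mean in all 5 pairs, and it was called in 2. In Pabp2 it read 0.63, -0.36 and -0.26 at 25 °C and -1.58, -1.78 and -1.93 at 30 °C, a decrease of 1.76 ± 0.22 on the log2 scale (limma adjusted p = 6.91e-04). In Dbp80 it read 0.15, -0.06 and -0.09 at 25 °C and -1.08, -1.13 and -0.98 at 30 °C, a change of -1.06 ± 0.19 (adjusted p = 0.00476). The arrays of both temperatures were well separated in both genes. The Dbp80 call was lost on leaving out any of the 6 arrays at 25 or 30 °C, with values from -1.11 to -0.99 over all leave-one-out fits. In CG45049 the ratio differed by -0.94 ± 0.09 (adjusted p = 1.77e-04), with a small spread but less than 2-fold. In Df31 it differed by -0.61 ± 0.17 (adjusted p = 0.0394) and in ewg by -0.35 ± 0.11 (adjusted p = 0.0728). Of the 21 possible pairs of CG45049 probes 1 was called in this step, A_09_P070376 over A_09_P218020 (-1.01 ± 0.11, adjusted p = 3.28e-04). Of all pairs, 3 of 6 were called in Pabp2, 2 of 3 in Dbp80, 0 of 21 in Df31 and 0 of 3 in ewg.

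From 14 to 11 °C only the ratio of ewg was called. It read 2.96, 2.76 and 2.84 at 14 °C and 3.99, 3.86 and 3.72 at 11 °C, an increase of 1.00 ± 0.11 (limma adjusted p = 8.73e-04). This call was lost without replicate 1 at 11 °C (0.94) and without replicate 2 or 3 at 14 °C (0.96 and 1.00). In CG45049 the ratio read 1.90, 1.88 and 1.83 at 14 °C and 2.58, 2.83 and 2.84 at 11 °C, which was 0.88 ± 0.09 (adjusted p = 7.94e-04) and below 2-fold. In Dbp80, Df31 and Pabp2 the differences were 0.25 (95% interval -0.17 to 0.67), 0.08 (-0.30 to 0.45) and -0.04 (-0.54 to 0.46), respectively. Over all pairs of member probes in this step, 2 of 3 were called in ewg and 0 in the other genes.

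Probes of other genes with the most similar course were sought over the 12 arrays by Pearson's r, which is a description, since arrays share slides and temperatures. The rising probe of ewg was most like probes for CG5493 (r = 0.997) and Alh (r = 0.995), and that of Pabp2 like CG13085 (0.995) and St1 (0.994). The falling probe of Pabp2 was most like a pair of probes for the acetylcholine receptor subunit gene nAChRbeta3 (both r = 0.986). For the falling probe of CG45049 they were CG42336 (0.995) and the apoptosis inhibitor gene Diap2 (0.992). For the RB probe of Dbp80 they were Ziz (0.981) and CG1463 (0.98), and for the RF probe of Df31 they were Prip (0.988) and ckd (0.986). The rising probe of CG45049 was most like Akh and CG31140 (both r = 0.99). The falling probe was most like Mbs (0.987) and CG12213 (0.986) in Dbp80, and like CG5854 (0.987) and mod(mdg4) (0.985) in Df31. The RB probe of ewg was most like CG2712 (0.97) and Ttd14 (0.969).

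Genes with functions related to those of Pabp2, Dbp80 and Df31, and the ELAV family, were examined as lists. Of 28 probes for 17 genes of poly(A) tail formation and mRNA export, 1 was called higher at low temperatures and 3 lower, with a median of -0.31. Over all probes tested the shares were 8.86% higher and 11.3% lower and the median was -0.16, so nothing particular to the list is read from these counts. The nucleoporin gene mbo rose by 1.13 ± 0.09, whereas Gle1, whose yeast relative activates Dbp5, fell by 1.2 ± 0.11 and the THO complex genes thoc6 and thoc5 fell by 1.14 ± 0.11 and 1.01 ± 0.08. The cytoplasmic poly(A)-binding protein gene pAbp had 5 probes between -0.01 and -0.42, none of which was called. No gene of this list had probes called in both directions.

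Of 19 probes for 12 histone chaperone genes, 10 were called lower at low temperatures and 0 higher, with a median of -1.16, beside 11.3% lower, 8.86% higher and a median of -0.16 over all probes tested. They were 5 probes for subunits of the chromatin assembly factor CAF-1 (from -1.36 to -1.91), which loads histones onto newly replicated DNA, the probe for the histone chaperone gene asf1 (-1.59 ± 0.09), and 4 probes for Ssrp and dre4 (from -1.16 to -1.36), which code for the FACT complex. Nap1, Nlp and Nph, all histone chaperones, had changes of -0.06 or -0.07.

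Of the ELAV family, 5 probes were tested. The probes for elav itself were well above background on all 12 arrays and had changes of -0.57 ± 0.14, -0.24 ± 0.18 and -0.43 ± 0.16, none called. The only Rbp9 probe to pass the filter on dim probes, A_09_P012116, was called lower (-1.0 ± 0.19, limma adjusted p = 0.001). The other probes for Rbp9 were too dim to be tested. A probe for fne was called higher but was well above background on 6 arrays only, and no fold is given. In these 3 lists limma and treat called 0 probes in both tested steps. At an unadjusted p under 0.05 there were 2 probes of the export list lower at 30 °C and 3 lower at 11 °C, 7 histone chaperone probes lower at 11 °C, and 1 ELAV family probe higher in each step.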

How the data were processed

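The authors quantified the arrays with Agilent Feature Extraction 10.7.3.1, per the file headers. Their deposited scanner output gives linear intensity per spot; the processed signal is background-subtracted and not normalized between arrays. A log2 table, also deposited, equals the log2 processed signal shifted by a constant per array. RNA was labelled with an oligo(dT)-primed kit. Control and outlier spots were left out, log2 processed signals were averaged per probe, and arrays were median-scaled to those at 25 °C. Probes were kept with at least 50% of spots well above background on at least 2 arrays of a temperature and values on at least 10 arrays. Limma 3.58.1 in R 4.3.3 was fitted to all 12 arrays, with a mean per temperature, and tested on simulated data. Within-gene ratios were fitted likewise. Symbols came from a RefSeq table (13464 of 13927 CG numbers matched). Member genes, pairs and lists were chosen with earlier results of these data known. All members are named; of each list, called genes were named, up to 4 by size, and others were named after their values were seen. The normexp alternative was planned on the mean spot signal and was run on the median spot signal instead, a departure from the plan; because 1 to 9 spots per affected array with very bright local background broke its fit, a second version without them was added after seeing the data. Both normexp versions added a constant of 50 to every signal. Further alternatives were other scalings, quantile normalization, no filter, slide and replicate blocks, treat, and leaving out arrays.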

Additional observations from a re-analysis of the deposited data

How the results depend on the processing

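Calls counted over the 24 probes and the 5 ratios were recomputed under 23 or 24 alternatives each. The deposited log2 table, the median over spots and the replicate block left all 6 counts as reported; same-numbered arrays correlated at 0.08 to 0.57 in their deviations, over 0.1 in 15 of 18 pairs. As the criterion was every pair, pairing was not assumed, though all arrays of replicate 1 share a slide. With the replicate block the counts were 13, 4, 2, 2, 2 and 1. The number of genes with probes called in both directions fell from 4 to 2 with 75th percentile scaling, spike-in scaling or slide as a block, and to 0 with treat, under which 4 single probes stayed called at low against high temperatures. At 30 against 25 °C single probes called fell from 2 to 1 with 75th percentile, quantile or spike-in scaling and to 0 with treat. Ratios called fell from 2 to 0 with treat and to 1 when only the 6 arrays compared were fitted. They rose to 3 with quantile normalization, under which the CG45049 ratio was -1.02 (limma adjusted p = 1.36e-04). At 11 against 14 °C single probes called fell from 2 to 1 without the filter, and to 0 with spike-in scaling, treat or only the 6 arrays compared; the ratio call was lost with treat and with only the 6 arrays. Leaving out 1 array gave 2 to 4 genes with both directions, 1 to 3 single probes and 1 to 2 ratios at 30 against 25 °C, and 0 to 2 single probes and 0 to 1 ratios at 11 against 14 °C.

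Of the alternatives, normexp as planned changed the results most. Both normexp versions also added a constant of 50 to every signal, and the part of this constant in the changes was not tested. Normexp as planned lost all calls (0 in each of the 6 counts), with a fitted background of -1020 on replicate 1 at 14 °C that became -23.9 once 9 spots with very bright local background were left out. It turned the sign at low against high of ewg A_09_P011461 (0.38), Pabp2 A_09_P011711 (0.54) and A_09_P145735 (0.50), Df31 A_09_P033096 (0.12) and A_09_P050026 (0.04), and CG45049 A_09_P171840 (0.25), A_09_P202110 (0.13), A_09_P218015 (0.36) and A_09_P218020 (0.09). At 30 against 25 °C it turned the ewg ratio (0.85), Dbp80 A_09_P077031 (-0.42) and A_09_P189030 (-0.29), Pabp2 A_09_P148910 (-0.56), Df31 A_09_P160685 (-1.16) and A_09_P160700 (-1.17), and CG45049 A_09_P171840 (-0.79), A_09_P202110 (-0.66), A_09_P210290 (-0.68), A_09_P218015 (-0.85) and A_09_P218020 (-0.60). At 11 against 14 °C it turned the Pabp2 ratio (0.45) and Df31 A_09_P033096 (0.14), A_09_P045371 (0.18) and A_09_P160700 (0.03). The version without such spots, added after seeing the data, kept 9 single probes called at low against high and 1 gene with both directions, 1 single probe and 1 ratio at 30 against 25 °C, and 0 and 0 at 11 against 14 °C. It turned ewg A_09_P011461 (0.11 at low against high, -0.02 at 11 against 14 °C), the ewg ratio at 30 °C (0.02), the Pabp2 ratio at 11 °C (0.09), Df31 A_09_P033096 (0.06), A_09_P050026 (0.19), A_09_P137885 (0.17) and A_09_P182215 (0.11) at 30 °C, and the last 3 at 11 °C (-0.04, -0.02 and -0.17).

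Other sign changes were of probes without a call. At low against high ewg A_09_P011461 became 0.18, 0.12 and 0.23 with 75th percentile, quantile and spike-in scaling, and Pabp2 A_09_P011711 and A_09_P145735 both 0.04 with 75th percentile and 0.09 with spike-in scaling. At 30 against 25 °C Df31 A_09_P050026 became 0.05, 0.19 and 0.22, A_09_P137885 0.02, 0.09 and 0.19 and A_09_P182215 0.02, 0.12 and 0.18 with these scalings, and A_09_P033096 0.07 and 0.10 with the latter 2. At 11 against 14 °C A_09_P050026 became -0.01 and -0.05 and A_09_P137885 -0.06 and -0.07 with quantile and spike-in scaling, and with the latter A_09_P182215 became -0.01 and ewg A_09_P011461 -0.12. On leaving out 1 array the range crossed 0 at 11 against 14 °C for Dbp80 A_09_P077031 (-0.18 to 0.48) and A_09_P189030 (-0.22 to 0.54), Df31 A_09_P045371 (-0.22 to 0.06), A_09_P050026 (-0.04 to 0.12), A_09_P137885 (-0.08 to 0.13) and A_09_P182215 (-0.02 to 0.17), ewg A_09_P011461 (-0.16 to 0.09) and the ratios of Df31 (-0.12 to 0.24) and Pabp2 (-0.09 to 0.03). It did so at 30 against 25 °C for Df31 A_09_P050026 (-0.07 to 0.04), A_09_P137885 (-0.11 to 0.00), A_09_P160685 (-0.07 to 0.06) and A_09_P160700 (-0.08 to 0.06) and Pabp2 A_09_P148910 (-0.05 to 0.27), and at low against high for ewg A_09_P011461 (-0.09 to 0.09). The cause of these changes was not tested. Precision is limited by 3 arrays per temperature and, for the dimmest probes, by signal over background.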

Other observations

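Besides Pabp2, Df31, Dbp80 and CG45049, 10 genes had probes called in both directions between low and high temperatures. They were looked at after their values were seen and are given without a test. The largest gaps were in trol, which codes for the basement membrane protein perlecan (6 probes, from -1.37 to 2.37), in CG40813 (-1.36 to 2.37) and in dnc, which codes for a cAMP phosphodiesterase (6 probes, from -2.28 to 1.2, of which 5 were called lower). The others were zormin, CG11413, P5CDh2, the nesprin gene Msp300, the actin nucleator gene spir, the cell adhesion gene Nrg and Galphaq. Of 2950 genes with at least 2 tested probes, 576 had probes of both signs, called or not.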
